A study of Mus musculus with 24 samples.

Results

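RNA levels in basophils lacking tristetraprolin (TTP-KO) were compared with those in wild-type (WT) basophils at 2 h after antigen had been washed away. The comparison was defined by genotype and time alone and took 3 TTP-KO and 3 WT libraries, 6 of the 24 libraries of the series, in which both genotypes were also sampled at 0, 1 and 4 h. Basophils were grown from mouse bone marrow for 7 days in IL-3 at 0.3 ng/mL, loaded from day 6 with IgE against the hapten TNP at 1 µg/mL, and enriched on magnetic beads for the surface protein CD49b. Cells of both genotypes received TNP-coupled ovalbumin (TNP-OVA) at 10 ng/mL for 1.5 h, were washed, and were kept for 2 h without it. The uridine analogue 4-thiouridine (s4U) was present at 150 µM from day 6 through the antigen pulse in all groups, and all RNA was alkylated with iodoacetamide, so these treatments do not differ between the genotypes. The labels give no allele for TTP-KO and no strain, sex or age of the mice. Nor do they tie the 3 libraries of a group to different mice or cultures. The p-values below set each difference against the scatter among libraries of a group, estimated over all 24 libraries, and that scatter may be technical.

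TTP, the product of Zfp36, is a zinc finger protein that binds AU-rich stretches in the 3' untranslated region (UTR) of mRNAs for cytokines and other inflammatory mediators and recruits the enzymes that remove the poly(A) tail, after which the mRNA is degraded. Basophils are granulocytes that carry IgE on its high-affinity receptor, and cross-linking of that receptor by antigen leads to granule release and to transcription of the genes for IL-4, IL-13 and chemokines. Once antigen is gone, the level of such an mRNA depends both on its remaining transcription and on its decay, which total reads do not separate.

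At 2 h, RNAs for secreted mediators were higher in TTP-KO, among them Il4 (3.19-fold), Il13 (4.03-fold), Ccl3 (3.04-fold) and Cxcl2 (2.88-fold). RNAs typical of macrophages and of lysosomes, such as Gpnmb (7.16-fold), Apoe (6.38-fold) and Ctsl (8.14-fold), were higher too. Genes lower in TTP-KO were fewer, P2ry14 (0.435-fold) and F2r (0.690-fold) among them. Of 15737 genes in the table, 12936 had enough reads to be tested, and 67 passed an adjusted p of 0.05 in edgeR's quasi-likelihood test with Benjamini-Hochberg adjustment over all genes tested, which is 0.518% of them. Higher in TTP-KO were 53 genes (0.41%) and lower were 14 (0.108%). Without an adjustment, 943 genes had p under 0.05. Scaling by library size only, in place of TMM factors, gave 48 higher and 31 lower. Without WT library A 37 were higher and 8 lower, and without WT library B 70 and 29. In all 67 called genes the 3 TTP-KO libraries lay beyond the 3 WT libraries, which was so for 1489 (11.5%) of all genes tested. The 67 were chosen by their difference in these same libraries, so their separation is no added support. For a single gene, full separation of 3 against 3 libraries has an exact two-sided permutation p of 0.1. The 6 libraries held 14749320 to 25372890 reads, and WT library A had reads on 10539 genes against 11089 to 11719 in the other 5. Levels are TMM-scaled CPM (read counts brought to a common library total), differences are log2 of TTP-KO minus WT with a standard error, and the median difference over all genes tested was 0.

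**Figure D1:**
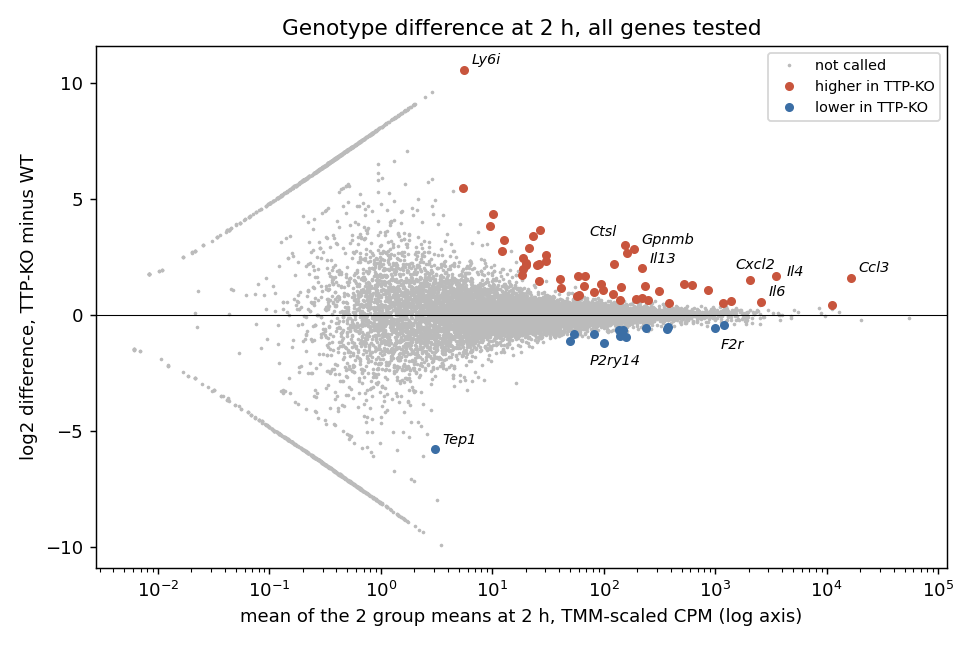
Log2 difference between TTP-KO and WT at 2 h (vertical axis) against the mean of both group means in CPM (horizontal, log axis) for the 12936 genes tested; red points are the 53 genes called higher, blue points the 14 called lower. Most called genes lie above 10 CPM and above the zero line; the straight grey edges at low levels are genes with 0 reads in all libraries of 1 genotype, whose fitted difference depends on the prior count.

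Zfp36 (ENSMUSG00000044786), the gene that encodes TTP, stood at 73.3, 74.5 and 78.8 CPM in WT libraries A, B and C and at 41.9, 27.1 and 51.1 CPM in TTP-KO libraries A, B and C. The TTP-KO libraries all lay below the WT libraries, and the difference of -0.92 ± 0.24 did not pass (edgeR adjusted p = 0.0652). Libraries were made from the 3' ends of mRNAs, and where the gene is disrupted is not given in the sources used here, so the reads are no check of the genotype labels. Under 5 of 13 alternatives Zfp36 passed as lower, with differences between -1.13 and -0.70 over all of them, and leaving out TTP-KO library C was 1 of the 5. Its relatives bind the same kind of sequence. Zfp36l1 was at 59.0, 62.3 and 91.1 CPM in WT and 108, 79.7 and 84.7 CPM in TTP-KO, with overlapping libraries (0.36 ± 0.19). Zfp36l2 was at 344, 302 and 313 CPM in WT and 393, 363 and 358 CPM in TTP-KO (0.22 ± 0.13, edgeR adjusted p = 0.685), without overlap. Of 56 genes for regulators of RNA decay, a list that includes these 3, 0 were called in either direction, with a median of -0.18. With 0.518% of all genes called, that count is near the background and is no result about the list.

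Cytokine and chemokine genes are the best known targets of TTP. Of 36 members tested, 12 were higher in TTP-KO and 0 lower, beside 0.41% and 0.108% of all genes. The median difference was 0.49 against 0 for all genes, and 27 of the 36 were above 0. Their summed level was 48950 to 56480 CPM in the WT libraries and 78000 to 82770 CPM in the TTP-KO libraries. That sum follows few abundant genes and not the list evenly. Ccl3 alone averaged 8184 CPM in WT and 24910 CPM in TTP-KO, while Ccl6, not called, averaged 21770 and 18840 CPM. Of 50 genes known as TTP targets from earlier work, 13 were higher and 0 lower, with a median of 0.35. That list shares 11 of its called members with the cytokine list, and the other two were Ptgs2 and Plaur. Both lists were drawn up with results of these data known, so their direction is no independent evidence. The same libraries differed in macrophage markers, which are described below: 10 of 21 were higher, with summed levels of 799 to 819 CPM in WT and 2136 to 2528 CPM in TTP-KO. Macrophages also make several of these cytokines, and the markers' part in the cytokine result was not tested. In bulk RNA, more cells of a type and more RNA per cell cannot be told apart.

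Il4 (ENSMUSG00000000869) encodes IL-4, the signature cytokine of basophils. It stood at 1417, 1858 and 1729 CPM in WT libraries A, B and C and at 5753, 4956 and 5254 CPM in the TTP-KO libraries. Every TTP-KO library was above every WT library, and the difference was 1.67 ± 0.12 (edgeR adjusted p = 1.81e-15). Il13 (ENSMUSG00000020383), its neighbour in the type 2 cytokine cluster, was at 57.8, 121 and 84.3 CPM in WT and at 378, 358 and 323 CPM in TTP-KO. The WT libraries spread more widely than the TTP-KO libraries without reaching them, and the difference was 2.01 ± 0.20 (edgeR adjusted p = 5.55e-10). Il6, an inflammatory cytokine, was at 1980, 2056 and 2198 CPM in WT and 3289, 3032 and 3021 CPM in TTP-KO (0.58 ± 0.09, edgeR adjusted p = 1.21e-05). Tnf, the textbook TTP target, was at 131, 96.5 and 101 CPM in WT and 168, 152 and 192 CPM in TTP-KO. WT library A came closest to the TTP-KO range, and the difference of 0.64 ± 0.15 passed narrowly (edgeR adjusted p = 0.0189). Its call was lost without WT library B or C or TTP-KO library C, with differences between 0.55 and 0.79 over all alternatives. Il1b, which encodes the inflammasome cytokine, was at 1062, 833 and 978 CPM in WT and 1279, 1243 and 1649 CPM in TTP-KO (0.54 ± 0.13, edgeR adjusted p = 0.0443), a call lost without WT library B or C or TTP-KO library C.

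**Figure D2:**
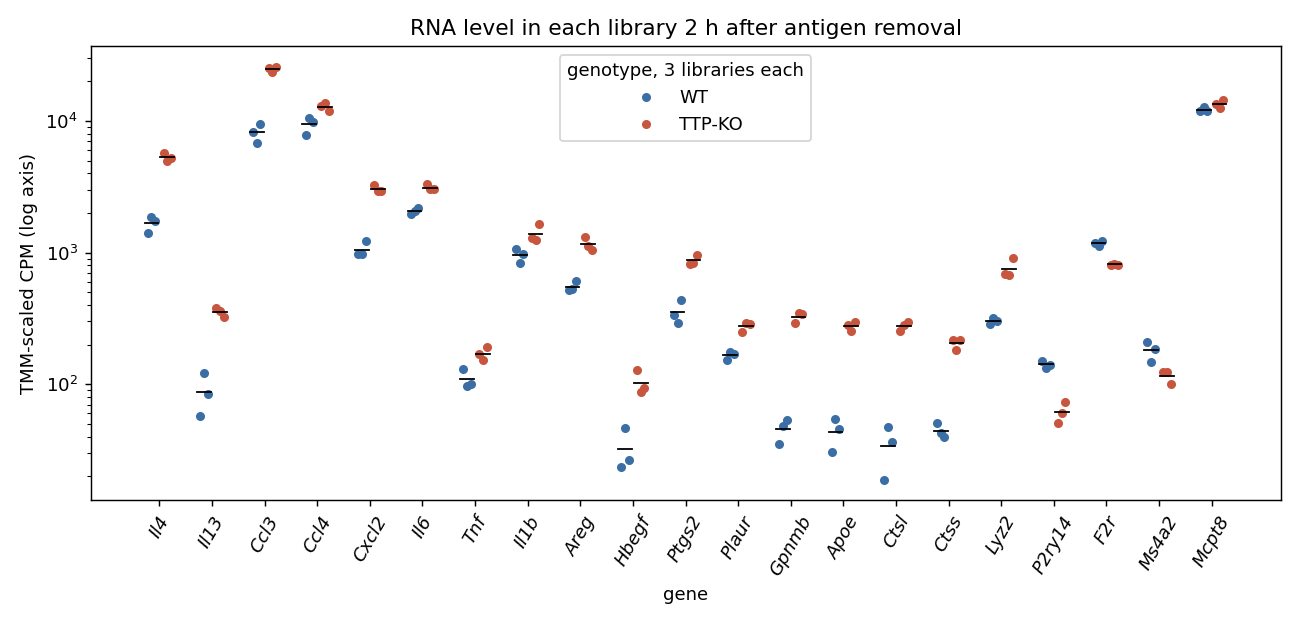
Level of each named gene (CPM, log axis) in the 3 WT libraries (blue) and 3 TTP-KO libraries (red) at 2 h, with group means as black bars. The red points of Il4, Il13, Ccl3 and Cxcl2 lie well above the blue ones, those of P2ry14, F2r and Ms4a2 lie below, and those of Mcpt8 overlap.

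Of the 12 called members of the cytokine list, 5 were chemokine genes, whose products draw other leukocytes to the site of activation. Ccl3 (ENSMUSG00000000982), an attractant of monocytes and lymphocytes, had the smallest adjusted p of all genes. It was at 8289, 6790 and 9473 CPM in WT and 25160, 23720 and 25860 CPM in TTP-KO (1.61 ± 0.09, edgeR adjusted p = 1.27e-18). The groups were far apart for their spread. Ccl4, its close relative, was at 7869, 10480 and 9871 CPM in WT and 12920, 13620 and 11840 CPM in TTP-KO. Its difference was smaller at 0.44 ± 0.10 (edgeR adjusted p = 0.0123), and the call was lost without WT library A or TTP-KO library B. The neutrophil attractant gene Cxcl2 was at 979, 971 and 1215 CPM in WT and 3241, 2940 and 2926 CPM in TTP-KO (1.52 ± 0.10, edgeR adjusted p = 1.05e-15). The monocyte attractant genes Ccl7 and Ccl2 were low in both genotypes. Ccl7 averaged 9.88 ± 3.93 CPM (SD, n = 3) in WT and 50.3 ± 3.90 CPM in TTP-KO, a difference of 2.34 ± 0.32. Ccl2 averaged 7.69 ± 4.21 CPM in WT and 30.1 ± 8.02 CPM in TTP-KO, a difference of 1.97 ± 0.47 whose call was lost without WT library C or TTP-KO library C. Other chemokine genes were not called: Ccl6 averaged 21770 CPM in WT and 18840 CPM in TTP-KO (-0.21 ± 0.09, edgeR adjusted p = 0.561), and Ccl9 differed by -0.02 ± 0.08. Uncalled members at low levels went either way. Ccl22 averaged 12.95 CPM in WT and 2.01 CPM in TTP-KO (-2.69 ± 0.81), and Cxcl10 (-1.59 ± 1.22) and Ccl17 (-0.54 ± 0.47) lay lower too. Ccl24 (1.25 ± 0.66) and Cxcl16 (0.60 ± 0.51) lay higher. The growth factor gene Csf1 was at 2140, 2038 and 2355 CPM in WT and 2521, 2573 and 2471 CPM in TTP-KO (0.21 ± 0.09, edgeR adjusted p = 0.511).

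Areg, Hbegf, Ptgs2, Gch1 and Plaur were higher as well. Areg, which encodes amphiregulin, a repair factor made by type 2 immune cells, was at 518, 527 and 605 CPM in WT and 1319, 1128 and 1050 CPM in TTP-KO. The lowest TTP-KO library exceeded the highest WT library by a wide margin, with a difference of 1.08 ± 0.11 (edgeR adjusted p = 1.25e-09). Hbegf, another EGF receptor ligand, averaged 32.2 ± 12.6 CPM in WT and 103 ± 22.6 CPM in TTP-KO (1.68 ± 0.30, edgeR adjusted p = 0.000545). Ptgs2, the inducible cyclooxygenase of prostaglandin synthesis, was at 336, 291 and 439 CPM in WT and 818, 839 and 963 CPM in TTP-KO (1.30 ± 0.13, edgeR adjusted p = 1.35e-09). It was the single member called of 15 lipid mediator genes, which with 0.518% of all genes called is no result about that list. Gch1, the first enzyme of tetrahydrobiopterin synthesis, was at 201, 169 and 249 CPM in WT and 405, 438 and 419 CPM in TTP-KO (1.03 ± 0.15, edgeR adjusted p = 8.77e-06). Plaur encodes the receptor of urokinase and was at 154, 175 and 170 CPM in WT and 250, 290 and 286 CPM in TTP-KO (0.73 ± 0.15, edgeR adjusted p = 0.00704), a call lost without WT library A. Without any single library, Il4, Il13, Il6, Ccl3, Ccl7, Cxcl2, Areg, Hbegf, Ptgs2 and Gch1 kept their calls.

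Among genes that receptor signalling induces, 0 of 43 immediate early genes passed, with a median of 0.24, and 0 of 28 NF-kB targets and feedback genes, with a median of 0.11. With 0.518% of all genes called, a count of 0 in lists of this size is near the background and is no result about them. Egr1, an early growth response factor, averaged 267 ± 39.5 CPM in WT and 256 ± 34.0 CPM in TTP-KO. Dusp1, a phosphatase that dampens MAP kinases, averaged 73.9 ± 16.5 CPM in WT and 114 ± 1.66 CPM in TTP-KO, a difference of 0.63 ± 0.17 that did not pass (edgeR adjusted p = 0.0762). Among 24 genes of the calcineurin and NFAT response, 4 were higher and 0 lower, beside 0.41% of all genes higher. These were Il4, Il13, Ptgs2 and Tnf, all of them also counted in the list of TTP targets, so they are no separate result about this response. The median of that list was 0.09.

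Sequence windows around an AU-rich motif are shown because TTP is known to bind such motifs. The longest annotated 3' UTR of each gene in GENCODE M21 (build GRCm38) was searched on the sense strand for the 7 letters TATTTAT and the 9 letters TTATTTATT, the latter containing the former. The deposited reads were processed on GRCm39, so no coordinates are given, and whether these libraries used the same 3' ends was not tested. The windows below run 5' to 3' as DNA letters, with 8 bases on either side of the motif. Capitals mark the first match of the longer motif present, and further matches in the flanks are left in lower case.
Il4, chromosome 11, motif from base 52 of the UTR: atttttaaTATTTATatatttat
Il13, chromosome 11, motif from base 306 of the UTR: tcttgatcTTATTTATTatggttgt
Ccl3, chromosome 11, motif from base 233 of the UTR: tttgtgacTATTTATtctgaaag
Cxcl2, chromosome 5, motif from base 882 of the UTR: gagttcacTTATTTATTtatctatg
Areg, chromosome 5, motif from base 213 of the UTR: tttaagtgTTATTTATTttatagct
Ptgs2, chromosome 1, motif from base 18 of the UTR: gaccatatTTATTTATTtatgtgaa
Tnf, chromosome 17, motif from base 438 of the UTR: tgcacttaTTATTTATTatttattt
Il4 holds 2 copies of the 7-letter motif in a UTR of 104 bases, and Tnf holds 8 copies, overlaps counted, in 764 bases. Windows are shown only for genes with a match. Plaur, Apoe, Ctsl and Gpnmb, also called higher and searched for a window, held neither motif.

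The 7-letter motif was present in 10 of the 12 cytokine genes called higher (83.3%), all but Ccl2 and Ccl7, whose UTRs of 275 and 435 bases did not contain these letters. Among all 53 higher genes it was present in 19 (35.8%), and among all 12803 tested genes with an annotated 3' UTR in 30.5%. The share among cytokine genes that were not called was not determined, so the 83.3% cannot be set against the rest of that list. Of the 15 higher genes in the macrophage or lysosomal lists described below, 4 held it (26.7%), and of the 26 higher genes in none of these lists, 5 did (19.2%). Of the 14 lower genes 2 held it, Cd24a and F2r. UTR length bears on such counts, since longer UTRs hold more motifs: the median length was 1172 bases for all genes, 720 for the 53 higher genes and 447 for the 12 cytokine genes. With UTRs under 500 bases, 20% of higher genes and 7.41% of all genes held the motif, and with UTRs over 1500 bases 56.2% and 50.3% did. The 9-letter motif was present in 15.1% of higher genes and 8.25% of all genes. These are descriptions of the annotated sequence, and a match is not a measured TTP site.

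The second large group of higher genes consisted of RNAs that mark macrophages, several of which already differed at 0 h, as given below. Of 21 monocyte and macrophage markers tested, 10 were higher and 0 lower, beside 0.41% and 0.108% of all genes. The median of these markers was 1.99, and 6 of them were called when WT library A was left out. Their summed levels in the groups, given above, did not overlap. Other defining markers of the list were not called: Adgre1, which encodes the macrophage antigen F4/80, was at 81.7, 58.1 and 56.7 CPM in WT and 60.2, 72.4 and 79.0 CPM in TTP-KO, with overlapping libraries. Cd68 averaged 51.9 ± 8.93 CPM in WT and 82.6 ± 17.5 CPM in TTP-KO, a difference of 0.67 ± 0.22 that did not pass. Fcgr1 had 0 reads in WT libraries A and B and averaged 4.77 ± 3.51 CPM in TTP-KO.

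Among the markers that rose, Gpnmb, a glycoprotein of lysosomes in lipid-laden macrophages, was at 35.1, 48.4 and 53.4 CPM in WT and 289, 347 and 344 CPM in TTP-KO (2.84 ± 0.16, edgeR adjusted p = 1.90e-18). Apoe, a lipid carrier, was at 30.7, 54.3 and 45.4 CPM in WT and 282, 253 and 295 CPM in TTP-KO (2.67 ± 0.18, edgeR adjusted p = 1.05e-15). In both genes WT library A was the lowest library and TTP-KO libraries were several times above every WT library. Ctss, a lysosomal protease that processes antigen, was at 50.8, 42.8 and 39.6 CPM in WT and 217, 182 and 216 CPM in TTP-KO (2.21 ± 0.19). Lyz2, the lysozyme of myeloid cells, was at 288, 318 and 300 CPM in WT and 686, 678 and 906 CPM in TTP-KO (1.33 ± 0.13). The complement genes C1qb (2.61 ± 0.42) and C1qc (2.26 ± 0.53) and the membrane protein gene Ms4a6d (2.88 ± 0.50) were low in WT, at means of 8.55, 6.88 and 5.11 CPM. C1qc spread widely within TTP-KO, from 13.9 CPM in library B to 56.1 CPM in library C, and its call was lost without WT library A or C or TTP-KO library C. Csf1r, the receptor for macrophage colony-stimulating factor, averaged 39.9 ± 14.9 CPM in WT and 94.0 ± 25.3 CPM in TTP-KO (1.24 ± 0.25), a call lost without WT library A or TTP-KO library B. Mrc1, the mannose receptor gene, had 0 reads in WT libraries A and B and 2.67 CPM in C against 12.8 to 28.4 CPM in TTP-KO (4.38 ± 1.02), a call lost without WT library A.

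Genes for lysosomal proteases and lipid handling formed a list that shares Ctss, Apoe and Gpnmb with the markers. Of its 29 members 8 were higher and 0 lower, beside 0.41% and 0.108% of all genes, with a median of 0.74. Ctsl, a cysteine protease of lysosomes, was at 18.9, 47.0 and 36.4 CPM in WT and 252, 282 and 297 CPM in TTP-KO (3.03 ± 0.20, edgeR adjusted p = 1.05e-15). Ctsb, a related protease, was at 159, 126 and 132 CPM in WT and 250, 317 and 425 CPM in TTP-KO (1.25 ± 0.17). TTP-KO library C was the highest in both, and no TTP-KO library overlapped WT. Lpl, which releases fatty acids from lipoproteins, was at 106, 80.6 and 72.0 CPM in WT and 173, 184 and 249 CPM in TTP-KO (1.22 ± 0.17). The fatty acid receptor gene Cd36 averaged 9.28 ± 4.8 CPM in WT and 42.8 ± 1.38 CPM in TTP-KO (2.20 ± 0.34). The fatty acid carrier gene Fabp5 averaged 20.3 ± 6.22 CPM in WT and 60.1 ± 3.59 CPM in TTP-KO (1.56 ± 0.32), a call lost without WT library A.

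**Figure D3:**
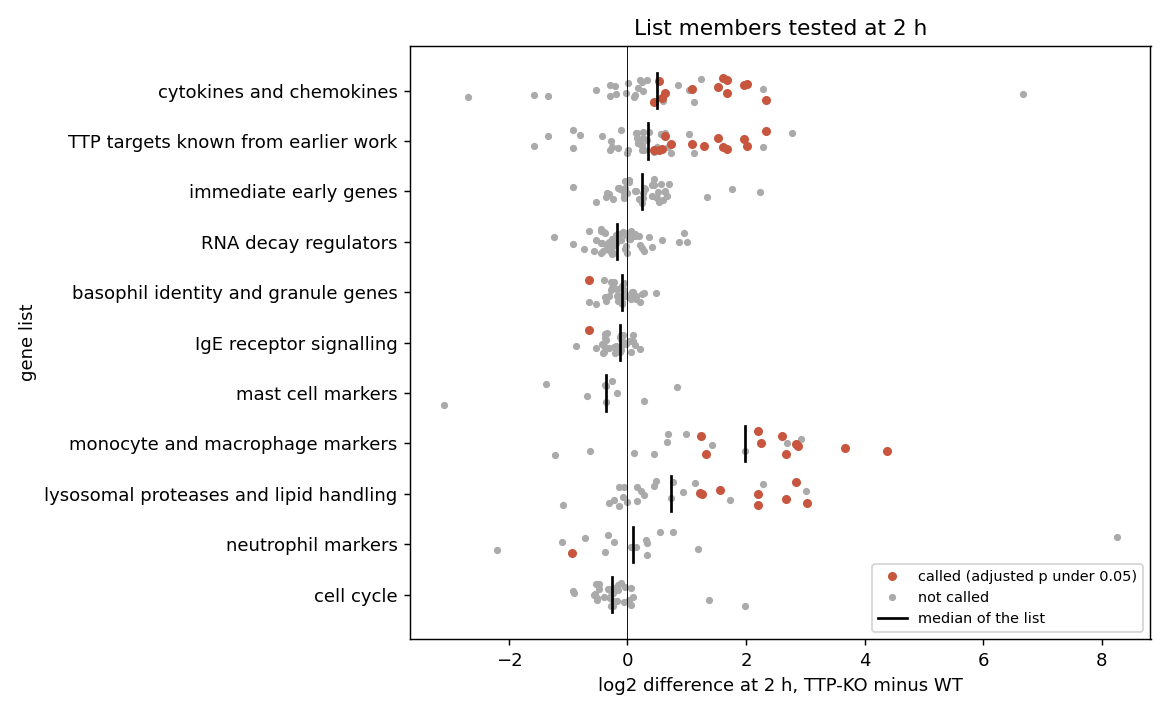
Log2 difference between TTP-KO and WT at 2 h (horizontal axis) for each tested member of 11 gene lists (rows); red points passed the edgeR threshold, grey points did not, black bars are list medians. Called members of the cytokine, TTP target, macrophage and lysosomal lists all lie right of 0, with list medians of 0.49, 0.35, 1.99 and 0.74.

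RNAs that define basophils were present in every library. Mcpt8, the basophil granule protease, was at 11820, 12760 and 11810 CPM in WT and 13400, 12490 and 14300 CPM in TTP-KO (0.14 ± 0.07, edgeR adjusted p = 0.645). Prss34, another basophil protease, averaged 8705 ± 267 CPM in WT and 9153 ± 15.5 CPM in TTP-KO, and Hdc, the histamine-forming enzyme, 10000 ± 1008 and 12150 ± 204 CPM. Of 39 basophil identity and granule genes, 1 was lower and 0 higher, with a median of -0.10. The member that fell was Ms4a2, the beta chain of the high-affinity IgE receptor, at 210, 147 and 186 CPM in WT and 123, 124 and 101 CPM in TTP-KO (-0.64 ± 0.16, edgeR adjusted p = 0.0326). Its call was lost without WT library A or C or TTP-KO library C. Fcer1a, the alpha chain, was at 220, 126 and 178 CPM in WT and 88.9, 129 and 148 CPM in TTP-KO, with overlapping libraries (-0.52 ± 0.18, edgeR adjusted p = 0.316), and passed at -0.71 without WT library B. Fcer1g, the gamma chain, differed by -0.11 ± 0.09. Of 33 genes of IgE receptor signalling, Ms4a2 was the single member called. Single calls in lists of this size, with 0.518% of all genes called, are no result about the lists. Actb was at 50620, 66210 and 54550 CPM in WT and 48950, 58860 and 47190 CPM in TTP-KO (-0.14 ± 0.10).

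Markers of other cells that the CD49b enrichment could have kept were listed as well. Called were 0 of 10 mast cell markers, 0 of 11 NK and T cell markers and 0 of 8 eosinophil markers, with medians of -0.36, 0.06 and -0.24. These counts too are near the 0.518% called among all genes and say nothing particular about the lists. The mast cell receptor gene Kit averaged 19.5 ± 2.41 CPM in WT and 7.56 ± 1.63 CPM in TTP-KO without overlap, a difference of -1.37 ± 0.51 that did not pass. Of 16 neutrophil markers, 1 was lower: Cxcr2, a chemokine receptor gene, at 188, 222 and 215 CPM in WT and 124, 85.0 and 119 CPM in TTP-KO (-0.93 ± 0.21, edgeR adjusted p = 0.0160), a call lost without TTP-KO library B. Of 15 dendritic and B cell markers, Cd74, the invariant chain of antigen presentation, was higher (0.92 ± 0.18) and Igkc, the immunoglobulin kappa constant gene, lower (-1.10 ± 0.25). The Cd74 call was lost without WT library C, and the Igkc call without WT library C or TTP-KO library A or B. Beside the 0.518% of all genes called, these neutrophil, dendritic and B cell calls concern single genes and are no result about the lists. Of 34 cell cycle genes and 21 glycolysis genes 0 passed, with medians of -0.26 and 0.00, and these counts are again near the share called among all genes.

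Outside these lists, 23 more genes were higher. Several encode secreted or surface proteins that macrophages also make. Mmp12, the macrophage elastase gene, was at 24.7, 37.4 and 21.9 CPM in WT and 75.6, 98.9 and 96.4 CPM in TTP-KO (1.69 ± 0.26). Lgals3, which encodes galectin-3, was at 1051, 1233 and 1042 CPM in WT and 1622, 1580 and 1859 CPM in TTP-KO (0.61 ± 0.10). S100a4, a calcium-binding protein gene, was at 37.0, 81.8 and 42.9 CPM in WT and 127, 130 and 148 CPM in TTP-KO (1.33 ± 0.24). In S100a4, WT library B stood above the other two and below all TTP-KO libraries. Acp5, an acid phosphatase gene of osteoclasts and macrophages, was at 10.2, 8.97 and 8.62 CPM in WT and 32.3, 50.8 and 41.4 CPM in TTP-KO (2.16 ± 0.39). Emp1, a membrane protein gene, was at 50.3, 50.8 and 62.6 CPM in WT and 127, 96.1 and 102 CPM in TTP-KO (0.99 ± 0.19). Igf1, an insulin-like growth factor gene, was at 8.92, 0.961 and 7.37 CPM in WT and 33.0, 29.8 and 33.0 CPM in TTP-KO (2.46 ± 0.49). Its WT library B was far below the other two, while the TTP-KO libraries were nearly level.

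Pattern recognition receptor genes were in the same group. Clec7a, the receptor for fungal beta-glucan, was at 58.5, 59.0 and 71.6 CPM in WT and 110, 131 and 162 CPM in TTP-KO (1.09 ± 0.22). Clec4n, which encodes dectin-2, was at 25.0, 20.3 and 31.8 CPM in WT and 68.5, 36.9 and 67.6 CPM in TTP-KO (1.16 ± 0.25). TTP-KO library B came close to the WT range in Clec4n, whose call was lost without WT library B or TTP-KO library A or C. Saa3, an acute phase gene, was at 1.55, 2.50 and 3.29 CPM in WT and 30.4, 11 and 28.1 CPM in TTP-KO (3.24 ± 0.61). Thbs1, the thrombospondin-1 gene, was at 127, 174 and 148 CPM in WT and 214, 270 and 240 CPM in TTP-KO (0.69 ± 0.15), a call lost without WT library A or TTP-KO library B. Ly6i had 0 reads in all 3 WT libraries and 11.6, 8.75 and 13.3 CPM in TTP-KO. That is 248-fold above a floor of 3 reads over the WT group (0.0451 CPM), which covers counting error only. Single WT libraries reached 4.75 CPM at 1 h and 5.3 CPM at 4 h, so the fold is no lower bound for the genotype difference. At 4 h that difference was 1.00 ± 1.22, and Ly6i was not called at 0, 1 or 4 h. Ly6i, Ms4a6d and Cd300c2 belong to families with close copies, whose shared reads the counting could have divided.

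The other 11 higher genes outside the lists had larger adjusted p values than the 12 above. Arg1, the arginase of alternatively activated macrophages, averaged 4.02 ± 2.83 CPM in WT and 42.1 ± 4.08 CPM in TTP-KO (3.39 ± 0.82), a call lost without WT library A. Cd300c2 averaged 3.08 ± 1.55 and 21.2 ± 5.95 CPM, and Sdc1, a proteoglycan gene, 0.223 ± 0.387 and 10.7 ± 5.20 CPM. Plekhg2, with 0 reads in WT libraries A and B, averaged 1.18 ± 2.05 CPM in WT and 17.9 ± 2.38 CPM in TTP-KO. Fam20c, a kinase gene of the secretory pathway, differed by 2.15 ± 0.53, the tautomerase gene Ddt by 1.74 ± 0.44 and the anaphase-promoting complex gene Anapc13 by 1.45 ± 0.34. Mfge8, a bridging protein for the uptake of dying cells, differed by 0.85 ± 0.21, Fkbp1a, an immunophilin gene, by 0.82 ± 0.21, Serpine2, a protease inhibitor gene, by 0.65 ± 0.15 and Psap, the precursor of lysosomal saposins, by 0.50 ± 0.12. Each of these 11 genes lost its call without at least 1 of the 6 libraries, and Fkbp1a lost it without any 1 of them.

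The 14 lower genes included P2ry14, F2r, Cd24a, Cdh1 and L1cam. P2ry14 (ENSMUSG00000036381), a receptor for UDP-glucose, was at 150, 133 and 141 CPM in WT and 50.5, 60.1 and 73.8 CPM in TTP-KO (-1.20 ± 0.20, edgeR adjusted p = 0.000257). F2r, the thrombin receptor PAR1, was at 1185, 1122 and 1224 CPM in WT and 803, 822 and 811 CPM in TTP-KO (-0.54 ± 0.10, edgeR adjusted p = 0.00152). Both had tight, well separated groups and were the lower genes that kept their call under every alternative. Cd24a, a surface glycoprotein gene, was at 224, 140 and 178 CPM in WT and 97.8, 95.7 and 97.3 CPM in TTP-KO (-0.90 ± 0.18), a call lost without WT library A. Cdh1, which encodes E-cadherin, was at 1449, 1343 and 1394 CPM in WT and 1055, 1096 and 918 CPM in TTP-KO (-0.45 ± 0.10). L1cam, another adhesion molecule gene, was at 61.2, 65.2 and 79.5 CPM in WT and 28.3, 49.6 and 37.9 CPM in TTP-KO (-0.83 ± 0.20). Cdh1 and L1cam both lost the call without WT library C or TTP-KO library C, Cdh1 also without WT library A and L1cam also without TTP-KO library A.

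The 6 other lower genes outside the lists had varied roles. Arrb2, the beta-arrestin that switches off G protein-coupled receptors, was at 454, 475 and 412 CPM in WT and 315, 280 and 300 CPM in TTP-KO (-0.58 ± 0.13). Asb2, a subunit of a ubiquitin ligase, was at 443, 456 and 452 CPM in WT and 300, 316 and 318 CPM in TTP-KO (-0.53 ± 0.13). Rnf128, a ubiquitin ligase of T cell anergy, was at 80.7, 132 and 98.9 CPM in WT and 62.8, 74.9 and 39.6 CPM in TTP-KO (-0.81 ± 0.19). Asb2 had the tightest groups of these, and Rnf128 had a gap of few CPM between WT library A and TTP-KO library B. Sema4a, a semaphorin gene, was at 272, 285 and 300 CPM in WT and 187, 204 and 190 CPM in TTP-KO (-0.56 ± 0.14), and R3hdm4 at 187, 164 and 154 CPM in WT and 101, 100 and 122 CPM in TTP-KO (-0.64 ± 0.15). Tep1, a telomerase-associated protein gene, was under 10 CPM in both groups, at 4.98, 6.47 and 6.66 CPM in WT and 0, 0.327 and 0 CPM in TTP-KO. Each of the genes in this paragraph lost its call without 2 or more of the single libraries, Asb2 and Sema4a without any 1 of the 6.

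Settings other than a left-out library also ended calls. A fit of only the groups compared ended those of Il1b, Tnf, Ccl2, Ccl4, C1qc, Csf1r, Mrc1, Cd74, Clec4n, Thbs1, Igf1, Serpine2, Psap, Mfge8, Fkbp1a, Anapc13, Ddt, Plekhg2 and Sdc1 among the higher genes. Among the lower genes it ended those of Ms4a2, Igkc, Cdh1, L1cam, Arrb2, Asb2, Rnf128, Sema4a, R3hdm4 and Tep1. DESeq2 did not call Mrc1, Plekhg2, Arg1 or Ccl2, and a minimum of 1 CPM in 12 libraries ended the calls of Il1b, Plekhg2, Arg1, Ccl2 and Sdc1. Library-size scaling ended those of Fkbp1a, Il1b, Mfge8, Psap and Ddt, and a fit without the 4 h groups those of Fkbp1a and Arg1. The block by column letter ended those of Fkbp1a, Mfge8 and Ddt, and the absence of a filter that of Mfge8.

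Part of the difference at 2 h was already there when antigen was removed, and part was not. Of the 67 genes, 37 were also called at 0 h in the same direction, 42 at 1 h, 42 at 4 h and 31 at all 4 times, and 15 were called at 2 h alone. A call at 1 time and not at another does not show that the times differ, so the change of the difference was tested itself. From 0 to 2 h the difference changed in 10 genes (0.0773% of those tested), and 844 had an unadjusted p under 0.05. From 1 to 2 h it changed in 0 genes (0%) by edgeR, in 75 by DESeq2, and 717 had an unadjusted p under 0.05. From 2 to 4 h it changed in 2 genes (0.0155%), Ctsl and Micall1. When WT library B was left out, 50 genes changed from 0 to 2 h and 18 from 1 to 2 h. Without TTP-KO library B or C, 1 gene changed from 1 to 2 h. From 2 to 4 h, 9 genes changed without WT library C, 4 without TTP-KO library A and 6 without TTP-KO library B or C. These tests share the 2 h libraries with the comparison above and are not independent of it.

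Il4 showed the clearest change. At 0 h both genotypes were level, at 3181 ± 183 CPM in WT and 3247 ± 513 CPM in TTP-KO, and at 2 h WT was at 1668 ± 227 CPM and TTP-KO at 5321 ± 403 CPM. Over those 2 h Il4 moved by -0.93 ± 0.11 in WT and by 0.71 ± 0.11 in TTP-KO, and the difference between the genotypes widened by 1.64 ± 0.16 (edgeR adjusted p = 2.28e-09). At 4 h levels had dropped to 366.7 ± 14 CPM in WT and 1174 ± 173 CPM in TTP-KO, a difference of 1.68 ± 0.12. Il13 moved by -2.88 ± 0.21 in WT and by -1.33 ± 0.20 in TTP-KO over the same 2 h, and its difference widened by 1.55 ± 0.28 (edgeR adjusted p = 0.00263). Ccl3 moved by -1.28 ± 0.09 in WT and by -0.62 ± 0.09 in TTP-KO, and its difference widened by 0.66 ± 0.12 (edgeR adjusted p = 0.00498). These were the 3 genes whose difference changed upwards by edgeR, and all 3 kept that call under each of the 13 alternatives.

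**Figure D4:**
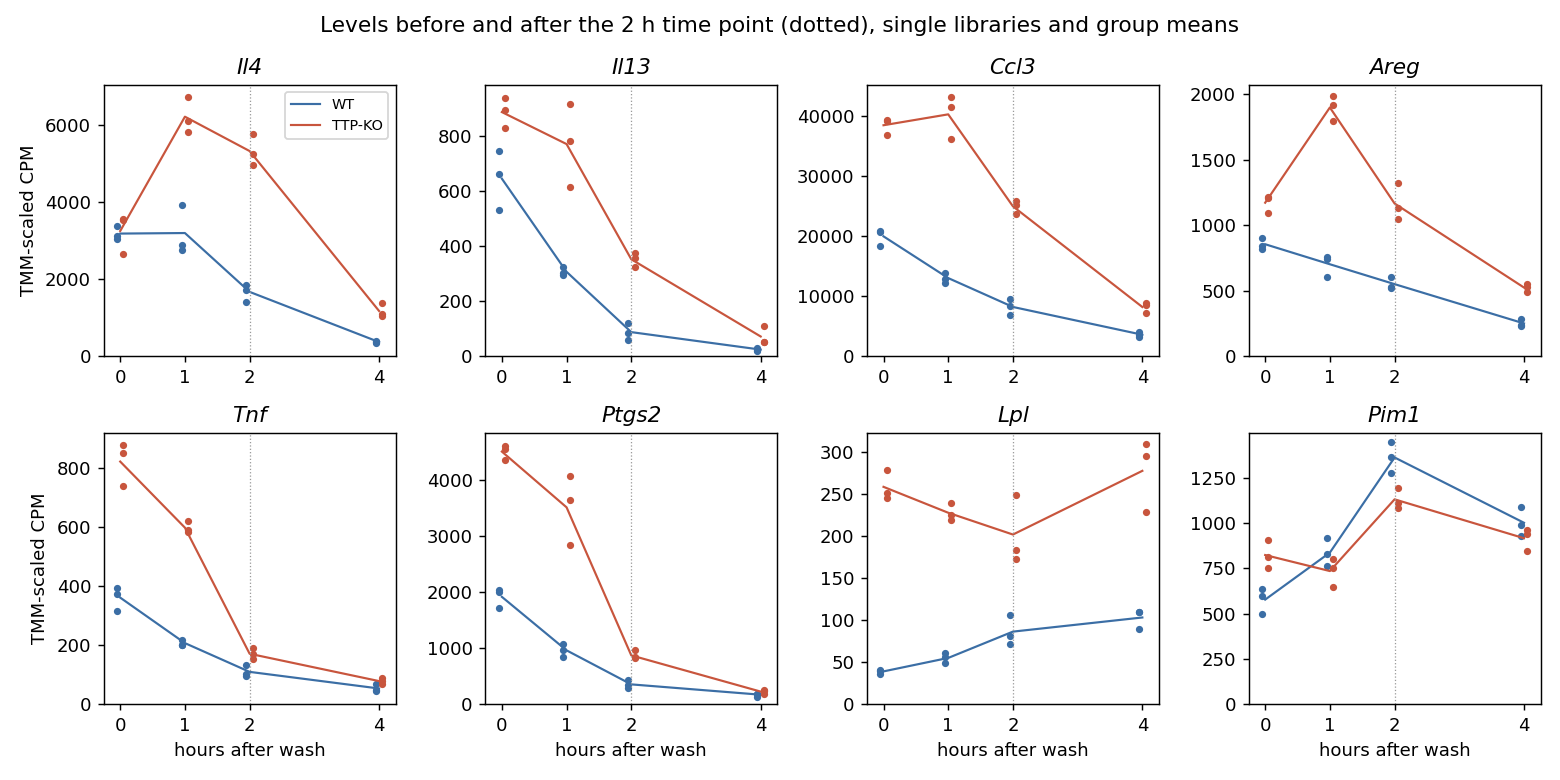
CPM in single libraries (points) and group means (lines) of 8 genes at 0, 1, 2 and 4 h after the wash, WT in blue and TTP-KO in red, with the 2 h time point dotted. Il4 starts level and stands at 5321 against 1668 CPM at 2 h; Tnf and Ptgs2 start far apart and have come closer in CPM by 2 h; Lpl in TTP-KO stays above every WT point while the WT mean climbs.

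For Tnf, Ptgs2, Il6, Cxcl2, Areg and Il1b, no change of the difference from 0 to 2 h passed. Tnf stood at 360.4 ± 40.9 CPM in WT and 820.4 ± 74.1 CPM in TTP-KO at 0 h, and moved by -1.72 ± 0.15 and -2.27 ± 0.15 to 2 h. The change of its difference, -0.55 ± 0.21, did not pass (edgeR adjusted p = 0.630). Ptgs2 moved by -2.43 ± 0.14 in WT and -2.37 ± 0.14 in TTP-KO, and Il6 by -0.83 ± 0.09 and -0.91 ± 0.09. Their differences changed by 0.06 ± 0.19 and -0.08 ± 0.12. Cxcl2 and Areg lay between these and Il4: Cxcl2 moved by -0.63 ± 0.10 in WT and -0.05 ± 0.10 in TTP-KO, and Areg by -0.64 ± 0.11 and -0.01 ± 0.11. The differences of Cxcl2 and Areg changed by 0.58 ± 0.14 and 0.63 ± 0.16, neither of which passed (edgeR adjusted p = 0.213 for both). Il1b moved up in both genotypes, by 1.05 ± 0.14 in WT and 0.96 ± 0.14 in TTP-KO. The macrophage markers Gpnmb, Apoe, Ctss and Lyz2 already differed at 0 h, by 3.03 ± 0.16, 2.78 ± 0.18, 2.61 ± 0.19 and 1.02 ± 0.12. No change of their difference from 0 to 2 h passed.

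In 7 genes the difference moved towards or past 0 between 0 and 2 h. Lpl was at 39.05 ± 2.35 CPM in WT and 258.5 ± 17.9 CPM in TTP-KO at 0 h, and its difference changed by -1.50 ± 0.23 (edgeR adjusted p = 0.000448) as WT moved by 1.14 ± 0.17 and TTP-KO by -0.36 ± 0.16. Osm, which encodes the cytokine oncostatin M, was at 2793 ± 357 CPM in WT and 5666 ± 108 CPM in TTP-KO at 0 h, and at 1161 ± 178 and 1398 ± 144 CPM at 2 h (change -0.75 ± 0.16, edgeR adjusted p = 0.0259). Pim1, a survival kinase gene, was higher in TTP-KO at 0 h by 0.51 ± 0.11 and at -0.27 ± 0.11 at 2 h, a change of -0.78 ± 0.16 (edgeR adjusted p = 0.0149). Nsf, a membrane fusion ATPase gene, changed by -1.83 ± 0.32 (edgeR adjusted p = 0.00226), from 1.38 ± 0.23 at 0 h to -0.45 ± 0.22 at 2 h. Edn1, which encodes endothelin-1, and Col18a1, a collagen gene, had 0 reads in all WT libraries at 0 h and 11.2 ± 6.28 and 9.56 ± 2.14 CPM in WT at 2 h, so their fitted changes depend on the prior count. Tep1 went past 0 to a larger difference, from 1.35 ± 0.92 at 0 h to -5.77 ± 1.18 at 2 h. Col18a1 and Tep1 were under 10 CPM in both groups at 2 h. The calls of Osm, Pim1, Tep1 and Col18a1 were lost without single libraries: Osm without WT library A or C or TTP-KO library B or C, Pim1 without WT library A or TTP-KO library C, Tep1 without TTP-KO library A or C, and Col18a1 without any 1 TTP-KO library.

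**Figure D5:**
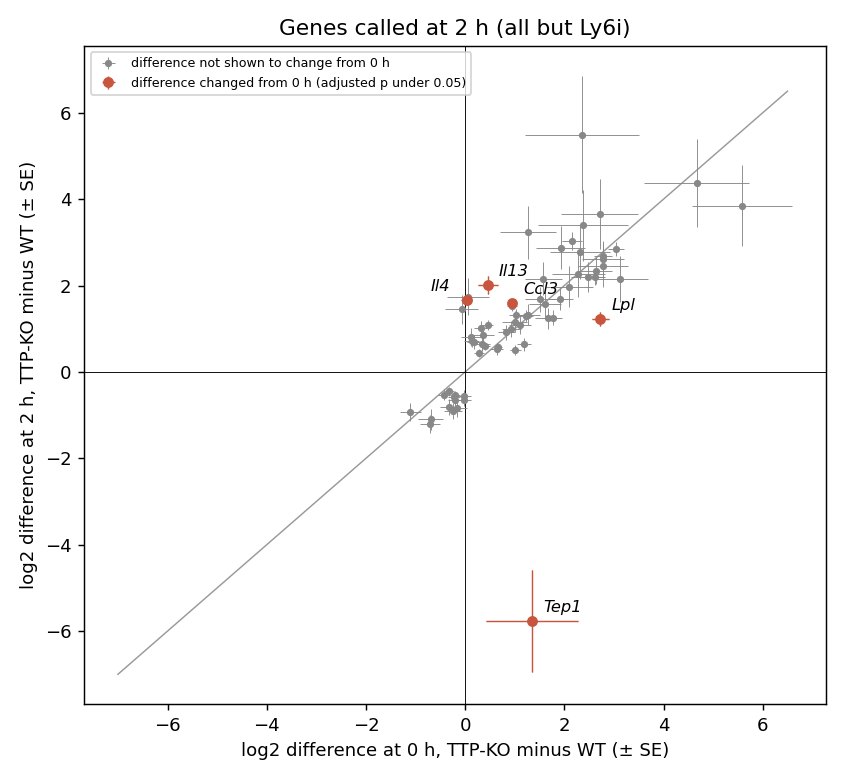
Log2 difference between TTP-KO and WT at 0 h (horizontal axis) and at 2 h (vertical axis), each ± SE, for the genes called at 2 h except Ly6i, with the line of equal differences in grey; red points are genes whose difference changed by the edgeR test. Il4, Il13 and Ccl3 lie above the line and Lpl and Tep1 below it; the points of each gene at the 2 times come from different libraries, and the vertical values were used to choose the genes.

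No change of the difference from 1 to 2 h passed in edgeR. The 10 genes with the smallest adjusted p for a change from 1 to 2 h were Il6 (-0.53 ± 0.12), Il4 (0.71 ± 0.16), Tep1, Spi1 (0.83 ± 0.19), Tnf (-0.89 ± 0.21), Klhl31, Cr2, Dgat1 (1.03 ± 0.26), Furin (0.57 ± 0.14) and Eif3f (0.90 ± 0.23). The smallest of their edgeR adjusted p values was 0.255, and Klhl31 and Cr2 had 0 reads in all WT libraries at 2 h and were under 10 CPM in TTP-KO. From 2 to 4 h the difference of Ctsl widened by 1.43 ± 0.27 (edgeR adjusted p = 0.0274), as WT stood at 10.3 ± 2.55 CPM and TTP-KO at 226 ± 4.91 CPM at 4 h, a call lost without WT library B. Micall1, a regulator of endosome recycling, changed by -2.26 ± 0.40 (edgeR adjusted p = 0.0123), from 40.1 ± 12.3 CPM in WT and 53.9 ± 12.8 CPM in TTP-KO at 2 h to 32.4 ± 5.01 and 9.07 ± 4.49 CPM at 4 h. The next 8 genes did not pass: Rsad2 (-1.76 ± 0.37), Il17ra (1.21 ± 0.25), Ptgs2 (-0.89 ± 0.19), Ccl4 (-0.62 ± 0.14), Slpi (-0.73 ± 0.17), Bhlhe40 (0.77 ± 0.19), Ly6i and B4galnt4, the last under 10 CPM at 2 h.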

How the data were processed

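QuantSeq 3' mRNA libraries of SLAM-seq RNA (s4U-labelled and alkylated) were analysed. Per the file headers and the values, the authors deposited 1 table of expected counts (reads per gene and library, 12.8% of them not whole, not normalized). The build GRCm39 and the tools SAMtools, STAR 2.7.10a and cutadapt 3.5 are listed, without roles, in the submitters' processing notes, and GRAND-SLAM and grandR in the series' design text. The gene annotation is not given in the sources used here. Columns carry letters A to C and the labels numbers, with nothing tying them, so each column counts as 1 library of the group in its name. For such columns 1 measure can be kept. Per the file headers, 144 further per-sample columns hold the estimated labelled share of each gene's RNA with its interval. They were not used here, so labelled and unlabelled RNA were not separated. No molecular identifiers are recorded, so the floor of 3 reads covers counting error only.

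Expected counts were rounded and tested in R 4.3.3 with edgeR 4.0.16 (TMM factors, filterByExpr, glmQLFit with a mean for each of 8 groups over 24 libraries, glmQLFTest). Contrasts were TTP-KO against WT at 2 h and its change from 0, from 1 and to 4 h. Genes with a Benjamini-Hochberg adjusted p under 0.05 over 12936 genes were called. The script was tested on simulated data. Libraries of 1 group differed beyond counting noise (chi-square per degree of freedom 41.1 to 77.2 at 2 h), so each was counted as 1 replicate, which does not show that they came from separate cultures.

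Named were 18 genes set by rule (among them Zfp36, Il4, Il13, Il6, Tnf, Ccl3, Fcer1a and Mcpt8), every list member and every other gene that passed at 2 h, those with values in each library being the 12 of smallest adjusted p in each direction, and the 10 of smallest adjusted p for each changed difference. The values of 1 such gene are not reported here. The 24 gene lists and the members were chosen with earlier results of these data known. The lists not described in the report held 0 called members of 32 survival and apoptosis, 25 cytokine feedback, 17 p53, 23 unfolded protein and stress, 30 interferon and 15 erythroid and progenitor genes. Against the 0.518% called among all genes, counts of 0 there are near the background and are no result about these lists. Alternatives were library-size scaling, other filters, a block by column letter, fewer groups, leaving out each 2 h library, and DESeq2 1.42.0.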

Additional observations from a re-analysis of the deposited data

Results flagged for a closer look

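In 10 genes the difference between TTP-KO and WT (log2) changed from 0 to 2 h by edgeR's test of the change itself. It widened by 1.64 in Il4, 1.55 in Il13 and 0.66 in Ccl3. It changed by -1.50 in Lpl, -1.83 in Nsf, -0.75 in Osm and -0.78 in Pim1. The fitted changes of -8.91 in Edn1, -8.88 in Col18a1 and -7.13 in Tep1 rest on groups at or near 0 reads and depend on the prior count. From 2 to 4 h the difference changed by 1.43 in Ctsl and by -2.26 in Micall1.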

How the results depend on the processing

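Over 13 alternatives, 30 of the 67 genes called at 2 h kept their call in each (28 higher, 2 lower), 7 lost it in 1 or 2, 30 lost it in 3 or more, and 0 reversed. Against 53 higher and 14 lower genes, library-size scaling gave 31 lower, no filter on low counts 87 and 40, fitting only the groups compared 4 lower, DESeq2 138 and 96, and a fit without the 4 h groups, added after seeing the data, 80 and 36. Leaving out 1 library of the 6 gave 37 to 70 higher and 8 to 29 lower, the extremes without WT library A and without WT library B. With the change of the difference from 0 to 2 h, the 10 genes became 20 without a filter, 90 with DESeq2 and 7 to 50 with 1 library left out. From 1 to 2 h, 0 genes became 11 without a filter, 75 with DESeq2 and 0 to 18 with 1 library left out. From 2 to 4 h, 2 genes became 20 without a filter, 1 with a minimum of 1 CPM in 12 libraries, 0 with only the groups compared, 99 with DESeq2 and 2 to 9 with 1 library left out. The cause was not tested, beyond the changed numbers of genes or samples that some settings bring. Library-size scaling moved the median difference of all genes by -0.03.

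A block by column letter gave 53 higher and 19 lower genes and moved the change from 2 to 4 h from 2 to 6 genes. Deviations of same-letter libraries of the 2 h groups correlated at -0.052, 0.009 and -0.019, and those of different letters at -0.037 to 0.05. No pairing by letter was seen in these values, which cannot tell whether same-letter libraries shared a culture or mouse. With 3 libraries a group, an exact permutation test of a single gene cannot go below p = 0.1, so calls rest on the spread shared across genes and groups.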
